A study of Equus caballus with 17 samples.

Results

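eca-miR-340-5p is the horse microRNA (miRNA) cut from the 5′ arm of the miR-340 hairpin, and it is described here in testis from infancy to adulthood and in sperm. It was chosen by its measured levels over these stages and in sperm, and it is 1 of 274 annotated mature miRNAs in the deposited table, where it has 1 entry. Its differences between groups are therefore given as a description, with no test.

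A miRNA is a short RNA that guides Argonaute proteins to messenger RNAs whose 3′ untranslated regions pair with its seed, and it lowers their stability and translation. The human miR-340 hairpin lies in an intron of RNF130, a gene for a RING-type ubiquitin ligase, and in human tumour cell lines miR-340-5p has been studied mostly as a restraint on growth. In the RefSeq gene table for the horse assembly TB-T2T, MIR340 lies inside the span of RNF130, between the protein-coding neighbours RASGEF1C and TBC1D9B, and it is the only miRNA gene in that span. Infant testis holds mainly Sertoli cells, interstitial cells and early germ cells. Meiotic cells and spermatids accumulate through puberty, and mature sperm keep little cytoplasm and transcribe almost nothing.

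Small RNA was sequenced from horse (Equus caballus) testis labelled Infant (n = 3), Pre-puber (n = 3), Puber (n = 3) and Adult (n = 4), and from Sperm (n = 4). The labels give no age, breed, genotype or treatment, and do not say that the libraries of a group came from separate animals. Infant 31a and 31b share a title number, as do Pre-puber 3a and 3b. Counts of annotated miRNAs ranged from 1.48 M (mega) in Sperm 3 to 13.1 M in Pre-puber 3a, and depth differed with the group, with means of 10.5 M in Infant, 9.85 M in Pre-puber, 4.84 M in Puber, 3.60 M in Adult and 1.80 M in Sperm. Pre-puber 14 stood apart from Pre-puber 3a and 3b in the germ cell miRNA miR-34c, and Sperm 2 stood apart from the other sperm libraries in miR-340-5p, as given below.

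Levels are CPM, the count divided by the library's annotated counts in M, after TMM scaling of all 17 libraries together. This scaling aims to bring the typical miRNA to a like level in each library. That was not reached for sperm, where the median log2 fold change against Adult was still -0.82 (-0.10 for Adult against Infant). In Infant testis, miR-340-5p stood at 1541 CPM in library 31a, 1227 in 31b and 1322 in 30. In Pre-puber testis it stood at 1245 CPM in 3a, 1740 in 3b and 2018 in 14. Puber testis held 3234 CPM in library 10, 3530 in 11 and 4262 in 19. These 3 libraries all lay above the highest Pre-puber library.

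In Adult testis the level was 6001 CPM in library 13, 4758 in 20, 3781 in 33 and 4553 in 4. Sperm held 24212 CPM in library 1, 71645 in 2, 25123 in 3 and 25597 in 4. The lowest sperm library was thus above the highest of the 13 testis libraries, and Sperm 2 lay far above the other 3 sperm libraries.

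**Figure D1:**
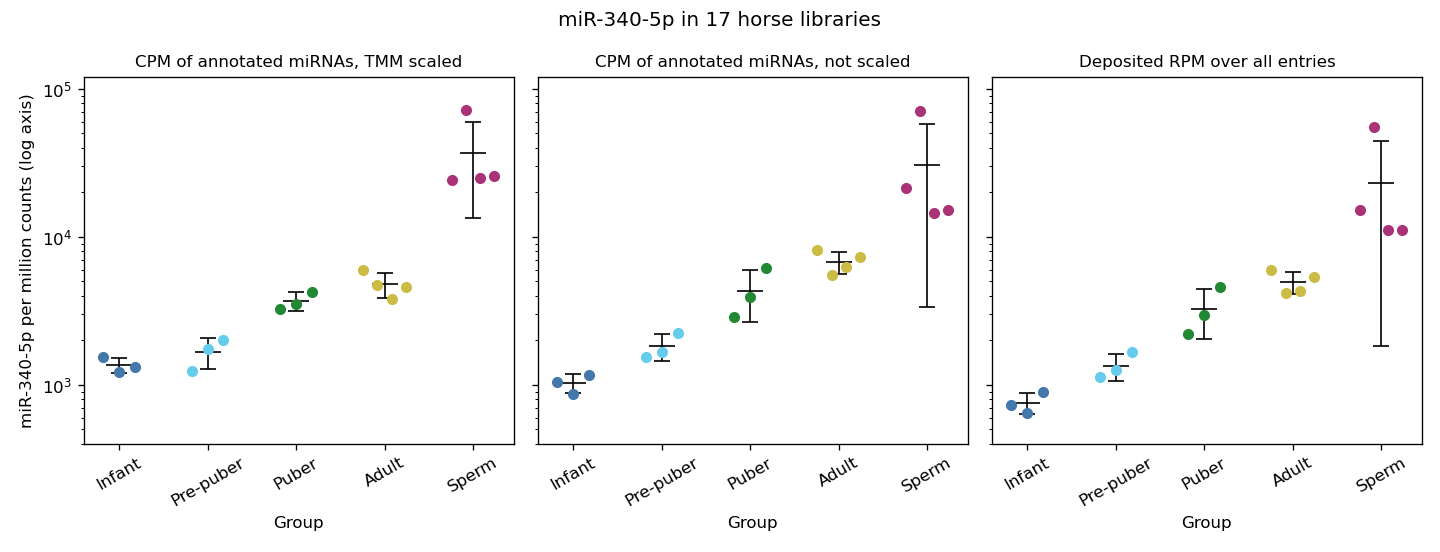
miR-340-5p in each library (points) with the group mean and SD (bars), on a log axis, in CPM of annotated miRNAs with and without TMM scaling and in the deposited RPM over all entries. On each of the 3 scales the group means increase from Infant through Pre-puber, Puber and Adult to Sperm, and Sperm 2 is the highest library, at 71645 CPM after scaling.

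The raw counts behind these levels were large: from 9896 in Infant 31a to 11275 in Infant 30, from 13938 to 20077 in Pre-puber, from 17446 to 24267 in Puber, from 12023 to 30536 in Adult and from 21546 to 136066 in Sperm. As a share of annotated counts, with no scaling, the Infant mean was 0.103 ± 0.015%, the Pre-puber mean 0.182 ± 0.038%, the Puber mean 0.432 ± 0.165%, the Adult mean 0.679 ± 0.115% and the Sperm mean 3.06 ± 2.72% (each ± SD over the libraries of the group). The lowest share was 0.0872% in Infant 31b (95% Wilson interval 0.0856 to 0.0889%) and the highest 7.11% in Sperm 2 (7.07 to 7.14%). These intervals cover counting error only, and in no library did the half-width exceed 1.97% of the share. Counting error was thus small beside the spread between libraries.

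In order of mean level, Infant testis held 1363 ± 161 CPM, Pre-puber 1668 ± 392, Puber 3675 ± 530 (n = 3 for each of these), Adult 4773 ± 920 and Sperm 36644 ± 23341 (n = 4 for both, ± SD). The libraries of Pre-puber and Infant overlapped, and so did those of Adult and Puber, so these neighbours in the order were not separated beyond their spread. Puber and Pre-puber did not overlap, nor did Sperm and Adult. Of the 10 pairs of groups, the remaining 6 did not overlap either. Without scaling, or in the deposited RPM, Pre-puber and Infant also separated, at 1531 to 2242 against 872 to 1171 CPM without scaling, while Adult and Puber overlapped on these scales too. How many other miRNAs lacked overlap in the same pairs was not counted, and this miRNA was chosen by these levels. Whether lack of overlap sets it apart from other miRNAs is therefore not known. Changes were common: the edgeR test given below called 77.2% of the 184 miRNAs for Sperm against Adult and 46.2% for Adult against Infant.

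By position among the 184 annotated miRNAs that passed the filter on low counts, miR-340-5p was at 41 to 43 in the Infant libraries and 39 to 40 in Pre-puber. It stood at 25 to 29 in Puber and 21 to 24 in Adult. In sperm it was at position 12 in library 1, 4 in library 2 and 10 in libraries 3 and 4. Infant and Pre-puber libraries thus did not overlap in position, but their nearest positions, 41 and 40, adjoined, and their levels overlapped.

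**Figure D2:**
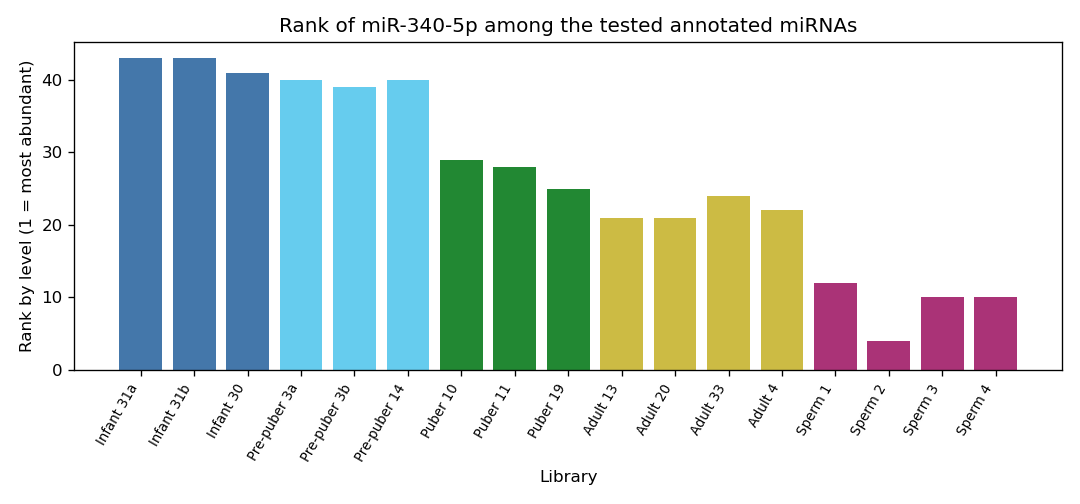
Position of miR-340-5p by level among 184 annotated miRNAs (vertical axis, 1 = most abundant) in each of the 17 libraries (horizontal axis, coloured by group). The bars run from 43 in Infant 31a and 31b to 4 in Sperm 2.

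The miRNAs next to it in each group show the scale of these positions. By mean level the miRNA just above it in Infant was miR-16 (1407 ± 356 CPM, n = 3), a restraint on the cell cycle, and the one just below was miR-181b (1294 ± 337). In Pre-puber the neighbours were miR-30e (1848 ± 41.5) and miR-20a (1496 ± 599), a member of the growth-linked miR-17-92 cluster. In Puber they were miR-532-5p (4189 ± 1187) and miR-1388 (3290 ± 1074). In Adult they were miR-145 (5016 ± 1695, n = 4), a smooth muscle miRNA, and miR-125a-5p (4705 ± 2360). In Sperm they were miR-99a (46539 ± 28358, n = 4) and miR-449a (32878 ± 16259), which is known from meiotic germ cells and ciliated epithelia. In each group the mean of miR-340-5p differed from those of its neighbours by less than the larger SD of the pair. In Sperm its position by mean was 7, which it held in no single library. There miR-99a stood at 20725 CPM in Sperm 2, against 71645 for miR-340-5p, and at 86919 in Sperm 3, against 25123.

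Set in pairs, Sperm exceeded Adult testis 7.68-fold (log2 fold change 2.94 ± 0.37 SE), and 5.23-fold without Sperm 2 (2.39 ± 0.26). Adult exceeded Infant 3.50-fold (1.81 ± 0.39), and Puber exceeded Pre-puber 2.20-fold (1.14 ± 0.40). The step of Pre-puber over Infant was 0.29 ± 0.39 and that of Adult over Puber 0.38 ± 0.37, each no larger than its error or close to it. Scaling bears on these sizes and directions. Sperm over Adult was 2.17 without scaling and 3.72 in a fit of Sperm and Adult alone. In a fit of all entries, predicted hairpins included, of which 1000 of 1763 passed the filter on low counts, the 4 comparisons between testis stages took the other sign (-0.12 for Pre-puber over Infant, -0.80 for Puber over Pre-puber, -0.00028 for Adult over Puber and -0.92 for Adult over Infant), while Sperm over Adult stayed at 2.52. In that fit the median entry itself lay 3.06 higher in Pre-puber than in Infant and 4.50 higher in Adult than in Infant (log2).

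Among the changes of all 184 miRNAs the testis values were not extreme. The log2 fold change of Pre-puber over Infant was in position 71 from the top, that of Puber over Pre-puber in position 28, that of Adult over Puber in position 56 and that of Adult over Infant in position 38. For Sperm over Adult, miR-340-5p was in position 22, with 11.4% of miRNAs showing a larger log2 fold change. The median miRNA there stood at -0.82, so miR-340-5p lay 3.76 above the median (log2). The corresponding gap was 0.22 for Pre-puber over Infant, 1.09 for Puber over Pre-puber, 0.39 for Adult over Puber and 1.91 for Adult over Infant. Measured from the median of annotated miRNAs, the gap for Adult over Infant was 1.91 without scaling and 1.93 with DESeq2 size factors. Scaling shifts all miRNAs of a comparison nearly alike, so the gap could hardly differ and does not check the scaling. Measured from the median of all entries in their own fit, the gap was -5.42.

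**Figure D3:**
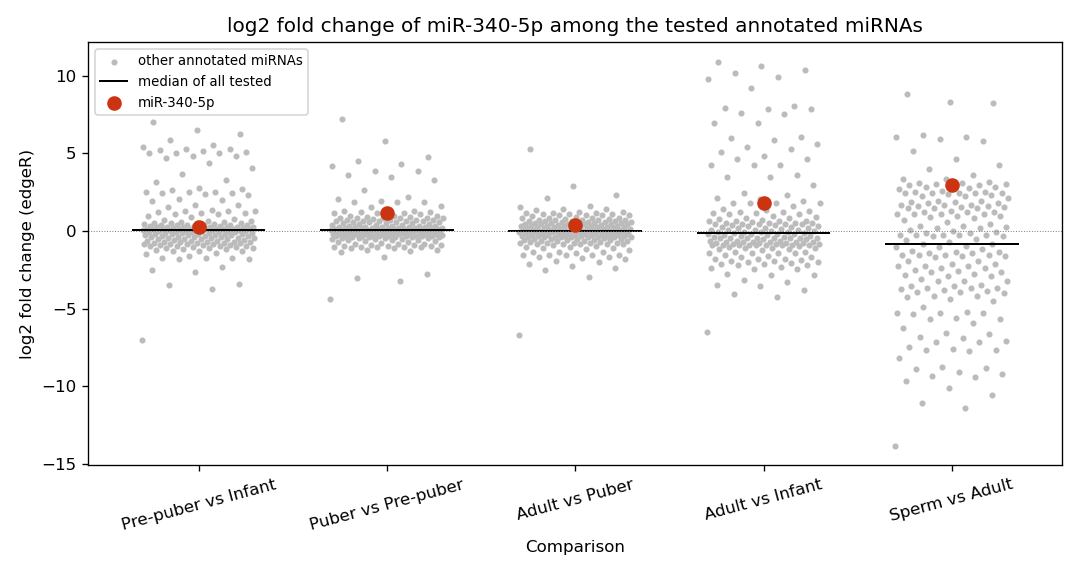
log2 fold change (vertical axis) of miR-340-5p (red) and the other annotated miRNAs (grey) in 5 comparisons of groups, with the median of all 184 as a black line. miR-340-5p lies near the median for Pre-puber vs Infant (0.29 against 0.07) and 3.76 above it for Sperm vs Adult.

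On the TMM scale, the spread of miR-340-5p between libraries of a testis group was below that of the typical miRNA. Its coefficient of variation was 11.8% in Infant (median 25.5% over 106 miRNAs with a mean of at least 50 CPM), 23.5% in Pre-puber (32.5% over 113), 14.4% in Puber (26.1% over 110) and 19.3% in Adult (32.4% over 108). In Puber this depended on the scale: the coefficient was 38.3% without scaling and 36.8% in the deposited RPM, above the medians of 31.8% and 30.7%, while Infant, Pre-puber and Adult stayed below their medians on both. In Sperm it was 63.7%, against a median of 39.1% over 86 miRNAs. Without Sperm 2 the sperm mean was 24990 ± 704 CPM (SD, n = 3), a coefficient of variation of 2.82%. That closeness depended on the scale. Without scaling, Sperm 1, 3 and 4 stood at 21376, 14541 and 15234 CPM, and Sperm 2 at 71056. In the deposited RPM they stood at 15292, 11129 and 11122, and Sperm 2 at 54872. The widest part of the spread in sperm thus came with 1 library, but the other libraries were nearly equal only after TMM scaling.

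Sperm 2 held 2.85 times the median level of the other sperm libraries, and miR-340-5p was in position 3 of 86 by this ratio, where the median miRNA had a ratio of 1.04. The germ cell markers miR-34b-5p (ratio 2.87), miR-34c (2.25) and miR-449a (2.18) were in positions 2, 5 and 7. Their relative miR-449b was in position 42, with a ratio of 1.09, near the median. miR-34c stood at 60920, 167276, 76662 and 74302 CPM in Sperm 1, 2, 3 and 4, so that Sperm 2 was the highest for it too. In the other direction, miR-191a stood at 157646 CPM in Sperm 2, against 428353, 839366 and 867865 in Sperm 1, 3 and 4. Of the 86 miRNAs, 28 were highest in Sperm 2 and 25 lowest.

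Ratios of counts within a library need no scaling. miR-340-5p held 69.3 to 144 counts for each count of miR-181b in Sperm and 11.8 to 15.1 in Adult, without overlap, although these miRNAs began at about the same level in Infant, at a ratio of 0.812 to 1.70. The ratio was 1.26 to 3.15 in Pre-puber and 4.79 to 7.59 in Puber. The groups with overlapping ratios were Infant and Pre-puber only. miR-181b itself fell from a mean of 1294 CPM in Infant to 351 in Adult, and stood at 365 in Sperm. Up to Adult the ratio thus grew more than the level of miR-340-5p did. Against miR-16 the course was different. The ratio was 0.849 to 1.14 in Infant, 1.21 to 1.99 in Pre-puber, 2.88 to 3.13 in Puber, 1.13 to 3.48 in Adult and 0.845 to 3.17 in Sperm, so that miR-16 and miR-340-5p were not separated between Sperm and Adult.

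Against the germ cell miRNA miR-34c, miR-340-5p held 0.328 to 0.428 counts per count in Sperm and 0.116 to 0.161 in Adult. In Sperm 2 this ratio was 0.428, close to the 0.397 of Sperm 1. In Pre-puber it was 35.9, 26.8 and 0.973 in libraries 3a, 3b and 14, and in Infant it lay between 39.0 and 97.2. Against miR-191a, the miRNA with the highest mean level in sperm, the ratio was 0.0295 to 0.0565 in Sperm 1, 3 and 4 and 0.454 in Sperm 2, against 0.396 to 0.772 in Adult.

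**Figure D4:**
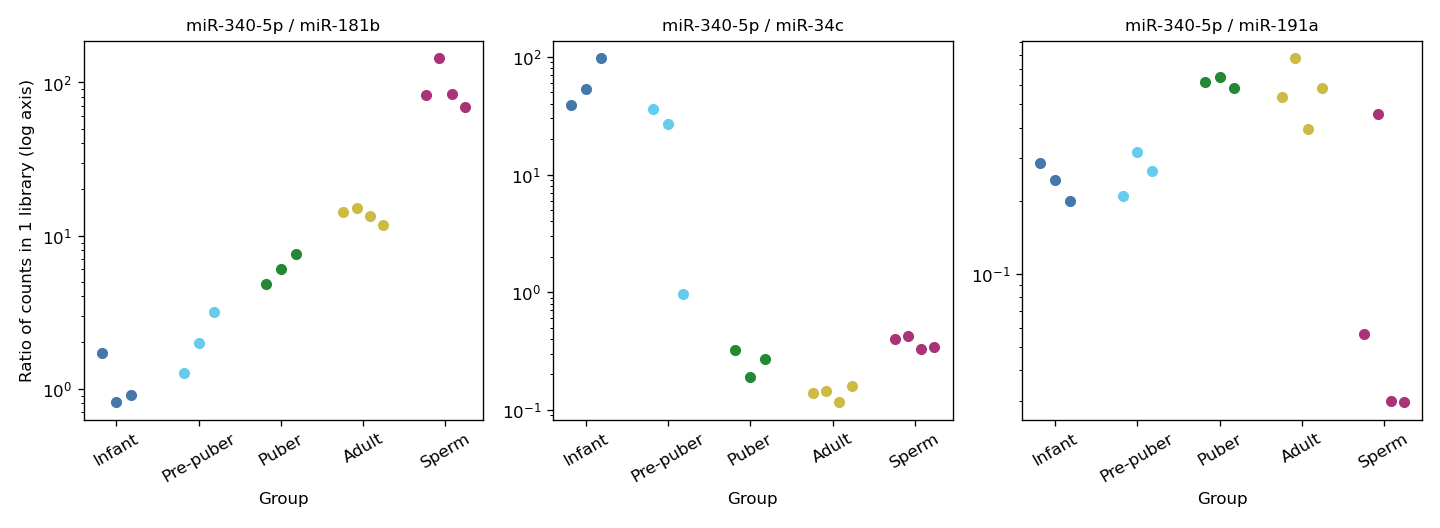
Counts of miR-340-5p divided by those of miR-181b, miR-34c and miR-191a in the same library (log axes), by group. miR-181b itself fell from a mean of 1294 CPM in Infant to 351 in Adult. The ratio to miR-16, which overlapped between Sperm and Adult, is not drawn. The ratio to miR-181b reaches 69.3 to 144 in Sperm, the ratio to miR-34c is 0.328 to 0.428 in all 4 sperm libraries, and the ratio to miR-191a in Sperm 2 (0.454) stands apart from the other sperm libraries.

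Cell type markers moved over the same groups. In bulk RNA, a change in the number of cells of a type and a change in the RNA of each cell cannot be told apart. The germ cell list (miR-34b-5p, miR-34c and miR-449a, 3 of 3 measured) summed to 16.5 to 45.6 CPM in Infant, 41.1 to 2608 in Pre-puber, 11497 to 20970 in Puber, 35049 to 52865 in Adult and 89319 to 231634 in Sperm. Its high Pre-puber library was 14, which also held the highest Pre-puber level of miR-340-5p. The stromal and smooth muscle list (3 of 5 measured) summed to 45.1 to 115 CPM in Sperm and 12356 to 17835 in Adult. It had stood at 30821 to 44268 CPM in Infant, 24933 to 34818 in Pre-puber and 21729 to 28942 in Puber. miR-126-5p of endothelium stood at 25.3 to 43.1 CPM in Sperm and 265 to 640 in Adult.

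The blood list (4 of 6 measured) summed to 1005 to 3518 CPM in Sperm and 891 to 4548 in Adult, with overlap, and to 920 to 6099 in Infant. No measured marker was at 0 in any library. The levels in sperm thus go with its label for stroma and endothelium, which were low. The blood markers went different ways within their sum. miR-451 of red blood cells stood at 562, 1281, 1467 and 1288 CPM in Sperm 1, 2, 3 and 4, against 78.0 to 973 in Adult. miR-150 stood at 14.0, 13.7, 72.3 and 10.8 CPM in these sperm libraries, against 39.8 to 110 in Adult. The epithelial list and miR-202 of gonadal soma were not analysed here. The part of these markers in the level of miR-340-5p was not tested.

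By edgeR's quasi-likelihood test with Benjamini-Hochberg adjusted p under 0.05, 77.2% of the 184 miRNAs were called for Sperm against Adult, and all 3 stromal markers were lower in Sperm (median log2 fold change -7.64, against -0.82 for all miRNAs). For Adult against Infant 46.2% were called. All 3 germ cell markers were higher in Adult there, with a median log2 fold change of 10.40 against -0.10 for all miRNAs. Both results were the same in the fits without scaling, with DESeq2 size factors and with all entries, and without any 1 library of the 2 groups compared. Of the stromal list, miR-199a-5p and miR-199b-5p fell in Adult against Infant. Their median with miR-145 was -1.64 (-0.68 without scaling, where 1 was called higher and 1 lower, and -4.35 with all entries, where all 3 were lower), and miR-145 was not called.

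For Pre-puber against Infant 23.4% were called, and all 3 germ cell markers were higher in Pre-puber, but none without Pre-puber 14, and their median log2 fold change was 0.95 without that library and 4.84 with it. For Puber against Pre-puber 3.8% were called, with 2 of 3 germ cell markers higher, a count that became 3 without Pre-puber 14, 1 without Puber 11 and 0 without Pre-puber 3a, Pre-puber 3b or Puber 19. Calls over all miRNAs leaned with the scaling. They were 58 higher and 84 lower in Sperm against Adult (40 and 98 without scaling, 71 and 68 with libraries of 1 title number summed, and 68 and 64 with separate fits), 47 and 38 in Adult against Infant (68 and 16, and 640 and 210 with all entries), 30 and 13 in Pre-puber against Infant (36 and 5, 456 and 43 with all entries, and 27 and 3 with libraries summed), and 6 and 1 in Puber against Pre-puber (6 and 0, and 192 and 155).

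For Adult against Puber 0% were called by edgeR, with 35 miRNAs at an unadjusted p under 0.05 and 6 called by DESeq2, and no marker was called. For Sperm against Adult 2 of 3 germ cell markers were higher. This was 1 without Adult 13 or with all entries, and 0 without scaling or without Adult 20, 33 or 4 or Sperm 2. In the TMM fit of all 17 libraries no endothelial or blood marker was called higher, but miR-126-5p was higher in Adult than in Infant without scaling (log2 fold change 1.46), and 1 blood marker was higher in Sperm than in Adult with DESeq2 size factors. miR-126-5p was lower in Sperm than in Adult, and miR-150, known from lymphocytes, was lower in Adult than in Infant and in Sperm than in Adult. Without scaling no blood marker was called for Adult against Infant, and the list's median there was 0.27 in place of -0.60. With all entries all 4 were lower in Adult. The lower blood call for Sperm against Adult was lost without Sperm 1, 2 or 4, and 1 blood marker was called higher without Sperm 1 or without Adult 33.

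Likeness of pattern was measured as Pearson's r of log2(CPM + 1) with miR-340-5p over the 17 libraries, among 136 miRNAs with a mean of at least 50 CPM in any group. The r values describe libraries that share groups, depth and scaling, and as deviations from the group means the r values were far lower for most, as given with the processing. The highest was 0.97 for miR-499-5p, which is encoded in an intron of a myosin heavy chain gene. It was followed by miR-217 (0.96), known from pancreas, miR-18a (0.95) of the miR-17-92 cluster, miR-449b (0.95), a relative of miR-449a, and miR-9a (0.94), a neural miRNA. Their Spearman coefficients lay between 0.89 and 0.96. The median r over the 136 miRNAs was -0.50.

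These miRNAs differed from miR-340-5p in level and in the size of the sperm step. For miR-499-5p the Infant mean was 32.2 ± 3.34 CPM, the Pre-puber mean 25.5 ± 6.49, the Puber mean 92.0 ± 27.8 (n = 3 for each), the Adult mean 135 ± 27.1 and the Sperm mean 4741 ± 1044 (n = 4 for both, ± SD). miR-340-5p thus held 5.32 to 11.6 counts per count of miR-499-5p in Sperm, against 25.5 to 50.1 in Adult. miR-9a stood at 86.4 ± 6.78, 190 ± 12.2, 270 ± 71.4, 380 ± 101 and 1207 ± 277 CPM over the same groups. miR-217 reached 54.5 ± 20.9 CPM in Sperm (n = 4), miR-18a 195 ± 45.3 and miR-449b 293 ± 89.7, all far below the level of miR-340-5p.

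The most opposite patterns were those of miR-411 (r = -0.96), miR-299 (-0.95) and miR-485-5p (-0.95), which in human and mouse lie in the imprinted DLK1-DIO3 region. miR-411 stood at 16312 ± 3236 CPM in Infant (n = 3), 8455 ± 2789 in Pre-puber, 6554 ± 775 in Puber, 3785 ± 321 in Adult (n = 4) and 521 ± 72.7 in Sperm. Its level was above that of miR-340-5p in each Infant, Pre-puber and Puber library and below it in each sperm library. miR-299 stood at 294 ± 43.2 CPM in Infant and was at 0 counts in 3 of 4 sperm libraries.

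**Figure D5:**
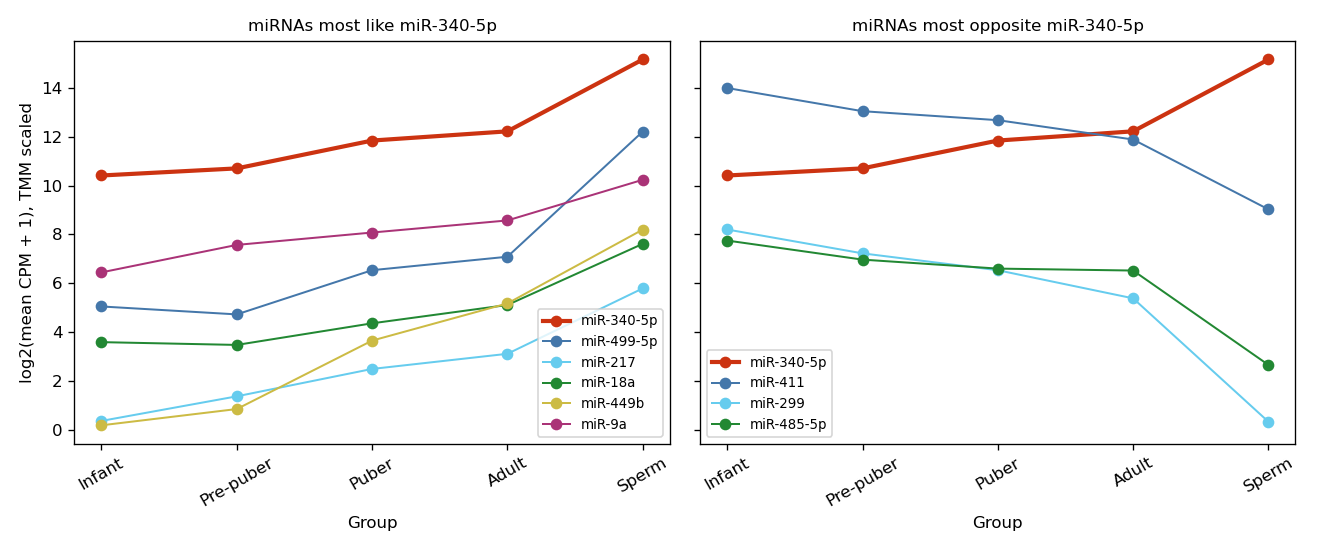
Group means as log2(mean CPM + 1) for miR-340-5p (red, thick line) with the 5 miRNAs of highest r (left) and the 3 of lowest r (right) over the 17 libraries. miR-340-5p is the most abundant of the left panel in each group, and miR-411 crosses it between Puber and Adult.

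Within the 13 testis libraries alone the order of likeness changed. The closest were then miR-34b-5p (r = 0.97), miR-34c (0.96), miR-8909 (0.96), miR-449b (0.96) and miR-449a (0.96), while miR-499-5p had 0.92 and miR-18a 0.75. The germ cell markers among them (miR-34b-5p, miR-34c and miR-449a) covered a far wider range than miR-340-5p: miR-34c stood at 34215 ± 6146 CPM in Adult (n = 4) and 25.3 ± 13.1 in Infant (n = 3).

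A mean that increased at each of the 4 steps was found for 15 of 137 miRNAs (23 without scaling and 22 in the deposited RPM), and for 13 on all 3 scales, miR-340-5p among them. These counts and names were chosen after the values were seen. By mean level in Sperm, miR-340-5p was the second of the 15, after miR-34c (94790 CPM) and before miR-449a (32878), miR-122 (16499), known from liver, and miR-93 (12677), a paralog of the miR-17-92 cluster. The order with miR-449a holds for the means only. miR-449a was above miR-340-5p in Sperm 1 (26057 against 24212 CPM) and Sperm 4 (28505 against 25597), and below it in Sperm 2 and 3. The log2 ratio of group means for Adult over Infant was 2.34 for miR-93 and 1.81 for miR-340-5p. For Sperm over Adult it was 2.70 and 2.94. The steps between testis stages were less alike. The log2 fold change of Pre-puber over Infant was 1.28 for miR-93 and 0.29 for miR-340-5p. That of Puber over Pre-puber was 0.72 and 1.14. miR-122 had log2 ratios of group means of 1.81 for Adult over Infant and 8.81 for Sperm over Adult. miR-139-5p had 0.23 and 2.97, so that most of its difference lay at the step to sperm.

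The 10 miRNAs nearest to miR-340-5p by mean level in Infant show how far its level in later groups stood from that of its Infant neighbours. They lay between 1040 and 1740 CPM in Infant, where 4 of them were below miR-340-5p. In Pre-puber 8 of 10 were below it. In Puber, Adult and Sperm all 10 were below it by mean. Their medians were 1005, 1167 and 3061 CPM, beside 3675, 4773 and 36644 CPM for miR-340-5p. This follows in part from the choice of miR-340-5p by its levels over these groups. In Sperm the means of the 10 spread from 1.25 CPM for miR-432 to 21839 for miR-16. In the library Sperm 1, miR-16 stood at 28638 CPM, above miR-340-5p at 24212. miR-146b-5p (16498 CPM in Sperm, 1345 in Adult) and miR-30b (13617 and 1540) were also far higher in Sperm by mean, while miR-374a (13.8 and 1077) and miR-98 (25.3 and 517) were far lower.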

How the data were processed

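The submitters' processing notes name Trimmomatic (no version given) and the build EquCab3.0. Aligner, counter and annotation release are not given in the sources used here. In the file, deposited counts are whole reads per entry, and the authors' deposited RPM equals count over the library's total of 1763 entries, within 0.005 RPM. Each column was joined to the sample whose title ends in its number. An Adult and a Sperm sample both carry number 4 and were told apart by a column prefix that the sperm numbers 1 and 2 also carry. The entry with the highest total was kept for each annotated miRNA (302 entries, 274 miRNAs).

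Counts were filtered with filterByExpr, TMM scaled (factors 0.579 to 1.65) and fitted in edgeR 4.0.16 (R 4.3.3) with 5 groups. SEs were derived from the F statistic. One fit was used so that all groups share a scale. DESeq2 1.42.0 was an alternative, and the fit was tested on simulated data. Far fewer miRNAs changed in that simulation than were called for Sperm against Adult, so it does not check the scaling of that comparison. No library pair agreed within sampling noise (chi-square per degree of freedom at least 351). The text names miR-340-5p, the 5 most and 3 least alike miRNAs, its neighbours by rank and the markers. The 10 nearest in Infant, the ratios and the steadily increasing miRNAs were added after the values were seen. The miRNA and the lists were chosen with earlier results of these data known. Spread between these samples, which may be technical, is all that the p-values measure. miR-340-3p, planned as a test, was not analysed here.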

Additional observations from a re-analysis of the deposited data

Results flagged for a closer look

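Each of 9 miRNAs (miR-340-5p and the 8 named for likeness) was checked in the 2 groups of 4 libraries for a library far from the rest, meaning a gap to its nearest neighbour above Dixon's 95% critical share of the group's range. Chance flags about 1 in 20 independent groups. Here 4 of 18 were flagged, but these miRNAs were chosen on the same libraries and share them, so that rate is no test of the number. miR-340-5p stood at 71645 CPM in Sperm 2, against 24212 to 25597 in the other sperm libraries, a gap of 0.971 of the range. miR-499-5p stood at 95.0 CPM in Adult 20, against 144 to 153 in the other Adult libraries. miR-9a stood at 797 CPM in Sperm 1, against 1280 to 1377 in the other sperm libraries. miR-299 stood at 1.05 CPM in Sperm 2 and at 0 in the other sperm libraries, where 2 counts were read in Sperm 2.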

How the results depend on the processing

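Direction of the miR-340-5p log2 fold change was kept for all 5 comparisons under each alternative it was computed for (DESeq2's own test gave counts of calls only) but the fit of all entries, which gave -0.12 for Pre-puber over Infant, -0.80 for Puber over Pre-puber, -0.00028 for Adult over Puber and -0.92 for Adult over Infant, with 499, 347, 0 and 850 entries called, and 569 for Sperm over Adult. Without scaling the values were 0.82 for Pre-puber over Infant, 0.65 for Adult over Puber, 2.73 for Adult over Infant and 2.17 for Sperm over Adult. In the deposited RPM they were 0.82, 0.66, 2.71 and 1.87 for the same pairs. Without the filter on low counts Adult over Puber was 0.67 and Adult over Infant 2.07. With libraries of 1 title number summed, Pre-puber over Infant was 0.57, Puber over Pre-puber 0.81 with 0 called by edgeR, and Sperm over Adult 3.56. With separate fits Sperm over Adult was 3.72 and 2 miRNAs were called for Puber over Pre-puber. DESeq2 called 14 for Puber over Pre-puber and 6 for Adult over Puber. Leaving out 1 library gave 0.10 to 0.49 for Pre-puber over Infant, 0.81 to 1.30 for Puber over Pre-puber (0 to 27 called, the most without Pre-puber 14), 0.25 to 0.73 for Adult over Puber (0 to 8 called), 1.68 to 1.93 for Adult over Infant and 2.39 to 3.10 for Sperm over Adult. As deviations from group means, a setting chosen after seeing the data, the r of miR-299 was 0.25, that of miR-411 -0.13 and that of miR-485-5p -0.70, and those of miR-499-5p, miR-217, miR-18a, miR-449b and miR-9a were 0.48, 0.38, 0.27, 0.39 and 0.40. The cause of these differences was not tested. The planned tests of miR-340-3p were not run. No paired analysis was possible because no groups compared share more than 1 title number (number 4 in Sperm and Adult, and number 3 in Sperm and Pre-puber).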
